A study of Mus musculus with 4 samples.

Results

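The genes described here are 10 heat shock chaperones and partners of the mouse cytosol: the Hsp70 group Hspa8, Hspa4, Hspa4l and Hsph1, the Hsp90 pair Hsp90aa1 and Hsp90ab1, the co-chaperones Dnaja1, Dnajb1 and Stip1, and Hspd1. They were chosen by symbol, and their transcripts were found by matching version-free identifiers with the mouse annotation GENCODE release 21 (GRCm38). All 10 were present among the 35427 genes with a matched transcript, and 64 of 115898 matched transcripts belonged to them. All 10 also passed the filter on low counts, which left 14907 genes called measured below. The name of the set fits 9 of the 10, since Hspd1 encodes the chaperonin of the mitochondrial matrix and is given on its own.

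The study compared hippocampal RNA of fear-conditioned C57BL/6J mice aged 4 months, kept awake for 6 h after training (sleep deprived) or left to sleep for the same 6 h (control). Mice of both groups carried P2RY12CreER, a tamoxifen-inducible Cre under a gene of microglia (the resident macrophages of the brain), together with the Rpl22HA RiboTag allele, which gives Cre-active cells a tagged ribosomal protein. RNA was recovered by pulldown of tagged ribosomes and enriched for polyA, and each sample pooled 2 mice. Sample titles gave the groups, because all 4 labels carry sleep deprivation as their treatment.

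The sleep-deprived files held 14473030 and 14431647 estimated reads and the control files 14877011 and 14833320. Within a group, the 2 files differed by less than sampling noise (chi-square per degree of freedom 0.227 for sleep deprived and 0.335 for control, against 69.1 to 69.3 between groups), so they were averaged and counted as 1 library. With 1 library per group (n = 1) there is no replicate check and no p-value. Ratios are sleep deprived over control on TMM-scaled reads per library size (CPM), and the bracketed range is the exact 95% interval, which covers counting error only. A gene was called higher or lower when its ratio passed 2-fold and the interval excluded 1.

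Hsp70 proteins bind exposed hydrophobic stretches of other proteins and release them in a cycle driven by ATP. J proteins such as Dnaja1 and Dnajb1 bring clients and start ATP hydrolysis, and the large Hsp110 relatives (Hspa4, Hspa4l, Hsph1) exchange the nucleotide. Hsp90 takes later, partly folded clients such as kinases and steroid receptors, and Stip1, also called Hop, bridges Hsp70 and Hsp90 by binding the end of both. Heat shock factor 1 raises many of these genes when unfolded proteins accumulate, while Hspa8 and Hsp90ab1 are the constitutive forms and are abundant in most cells, neurons included.

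None of the 10 genes was called higher and none lower at 2-fold, against a background of 4.37% of measured genes called higher and 5.54% called lower. The values nevertheless differed among the members. Hspa8 and Hsp90ab1, the most abundant members, had the ratios farthest from 1, at 0.646 and 0.570. Hsp90aa1 had a ratio of 0.728, and the other 7 lay between 0.859 and 1.12. The median log2 ratio of the members was −0.14, with 8 ratios below 1 and 2 above, while the median over all 14907 measured genes was 0.002, with quartiles at −0.37 and 0.36. Under a 1.5-fold rule Hspa8 and Hsp90ab1 were called lower and no member higher, where the background was 13.2% lower and 12.8% higher. The call of Hspa8 was lost with TPM in place of reads and with pseudogene reads added, while that of Hsp90ab1 was kept. Among the 4841 genes that averaged 50 CPM or more, a class that holds all members except Dnajb1, 7.4% were called lower at 1.5-fold and 12.3% higher.

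Hspa8, the constitutive Hsp70 (chr9:40800984-40810087, plus strand), had 6407 and 6459 estimated reads in the sleep-deprived files and 10584 and 10777 in the control files. This corresponded to 456 CPM in the sleep-deprived and 706 CPM in the control library, a ratio of 0.646 (0.626 to 0.666), and 14.0% of measured genes had a lower ratio. Both sleep-deprived files lay below both control files, but the files of a group count as 1 library and give no replicate support. The other Hsp70 members encode Hsp110-type proteins and did not share this ratio. Hspa4 (chr11:53259814-53300457, minus strand) had 1884 and 1859 reads in the sleep-deprived files and 2110 and 2107 in the control files, a ratio of 0.952 (0.894 to 1.01). Hspa4l (chr3:40744495-40796103, plus strand) had 2905 and 2891 reads in the sleep-deprived files and 3626 and 3609 in the control files, a ratio of 0.859 (0.818 to 0.902). Hsph1, known as Hsp105 (chr5:149614287-149636376, minus strand), had 1057 and 1059 reads in the sleep-deprived files and 1054 in each control file, a ratio of 1.08 (0.987 to 1.17). The interval of Hspa8 overlapped none of the other 3. The sum of the 4 genes was 870 CPM in the sleep-deprived and 1155 CPM in the control library, a ratio of 0.753 (0.736 to 0.771), and Hspa8 made up more of that sum than the other 3 genes together.

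Hsp90ab1, the constitutive Hsp90 (chr17:45567775-45573271, minus strand), had 4486 and 4476 reads in the sleep-deprived files and 8433 and 8432 in the control files. In CPM this was 318 for sleep deprived and 558 for control, with a ratio of 0.570 (0.549 to 0.591). It was the member nearest to the 2-fold limit, and 9.56% of measured genes had a lower ratio. Hsp90aa1, the Hsp90 form that heat induces more strongly (chr12:110690605-110702728, minus strand), had 4294 and 4297 reads in the sleep-deprived files and 6325 and 6326 in the control files. Its ratio was 0.728 (0.700 to 0.757), and its interval did not overlap that of Hsp90ab1. The Hsp90 sum was 622 CPM in the sleep-deprived and 976 CPM in the control library, a ratio of 0.638 (0.621 to 0.655).

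The co-chaperones stayed nearer to 1. Stip1, the Hsp70 to Hsp90 adaptor (chr19:7020702-7039967, minus strand), had 1230 and 1222 reads in the sleep-deprived files and 1410 and 1398 in the control files, a ratio of 0.936 (0.867 to 1.01). Dnaja1, a J protein of Hsp70 (chr4:40722150-40737149, plus strand), had 1574 and 1570 reads in the sleep-deprived files and 1912 and 1897 in the control files, a ratio of 0.885 (0.828 to 0.947). Dnajb1, the heat-inducible J protein known as Hsp40 (chr8:83608193-83612653, plus strand), was the least abundant member. It had 154 and 145 reads in the sleep-deprived files and 144 and 145 in the control files, and its ratio of 1.12 (0.883 to 1.41) had the widest interval of the 10. The sum of the 3 was 209 CPM in the sleep-deprived and 228 CPM in the control library, a ratio of 0.916 (0.872 to 0.962). The intervals of the Hsp70, Hsp90 and co-chaperone sums did not overlap one another. For Hsp70 this rests on Hspa8, at 0.646. Its other 3 members, at 0.859 to 1.08, lay in much the same range as the co-chaperones, at 0.885 to 1.12. Hspd1, the mitochondrial Hsp60 (chr1:55077835-55088243, minus strand), had 1258 reads in each sleep-deprived file and 1455 and 1457 in the control files, a ratio of 0.926 (0.858 to 0.9997). Its partner Hspe1, which encodes the lid of the same chaperonin and starts beside it on the other strand, had a ratio of 0.619 (0.523 to 0.730).

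**Figure D1:**
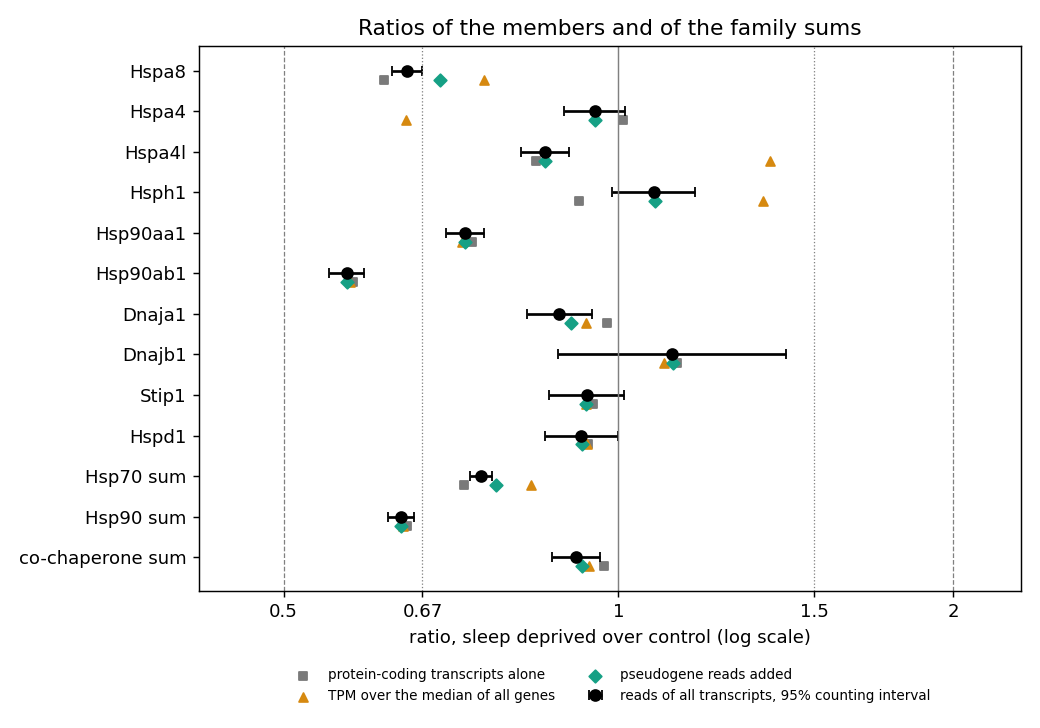
Ratio of sleep deprived over control (log axis) for each member and for the Hsp70, Hsp90 and co-chaperone sums. Black points are the reads of all transcripts with their 95% counting interval, squares the protein-coding transcripts alone (TMM scaled over those transcripts), triangles the TPM divided by the median ratio of all measured genes, and diamonds the reads with those of related pseudogenes added. Dashed lines mark 2-fold and dotted lines 1.5-fold. Hsp90ab1 lies lowest, at 0.570, and its 4 markers stay together, while those of Hspa8, Hspa4, Hspa4l and Hsph1 spread.

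The level of a message per length was compared on the TPM scale, over protein-coding transcripts. Hspa8 stood at 410 and 421 TPM in the sleep-deprived files and 587 and 601 TPM in the control files. Hsp90ab1 followed at 254 TPM in each sleep-deprived file and 383 and 386 TPM in the control files, and Hsp90aa1 at 210 and 211 TPM in the sleep-deprived files and 247 and 248 TPM in the control files. Then came Stip1, Hspd1, Hspa4, Hspa4l, Dnaja1 and Hsph1, from 87.6 down to 27.7 TPM in the sleep-deprived files and from 80.7 down to 26.2 TPM in the control files. Dnajb1 was last, at 7.42 and 7.02 TPM in the sleep-deprived files and 5.71 and 5.64 TPM in the control files. The order of the 10 on this scale was the same in both libraries. For 9 of 9 neighbours in that order the files of a group did not overlap. Those files count as 1 library and give no replicate support. With TPM of all transcripts, the scale planned for levels, the order differed between the libraries. There Hspa4 ranked 9 in the sleep-deprived and 4 in the control library, and Hsph1 ranked 4 and 7. Hsp90aa1 ranked 2 and Hsp90ab1 3 in the sleep-deprived library, and the reverse in the control library. Hspa8 stayed highest and Dnajb1 lowest.

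Relative to Stip1, the adaptor of both, the levels of Hspa8 and Hsp90ab1 were lower in the sleep-deprived library. By protein-coding TPM there were 4.68 and 4.81 Hspa8 per Stip1 message in the sleep-deprived files, against 7.27 and 7.47 in the control files. Likewise there were 2.90 and 2.91 Hsp90ab1 per Stip1 message in the sleep-deprived files, against 4.75 and 4.81 in the control files. Within the Hsp90 pair, Hsp90ab1 exceeded Hsp90aa1 1.21-fold and 1.20-fold in the sleep-deprived files and 1.55-fold and 1.56-fold in the control files. With TPM of all transcripts this ratio was 1.02 and 0.966 in the sleep-deprived files and 1.27 and 1.23 in the control files. Hspa8 per Hsp90ab1 over protein-coding transcripts was 1.61 and 1.66 in the sleep-deprived files and 1.53 and 1.56 in the control files, the other way. Hspa8 per Hspa4 was 7.71 and 7.99 in the sleep-deprived files and 12.8 and 13.1 in the control files, but with TPM of all transcripts it was 7.68 and 7.25 in the sleep-deprived files and 6.38 and 6.30 in the control files. Ratios between genes of the same file do not depend on how the libraries were scaled, but they do depend on which transcripts are counted.

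**Figure D2:**
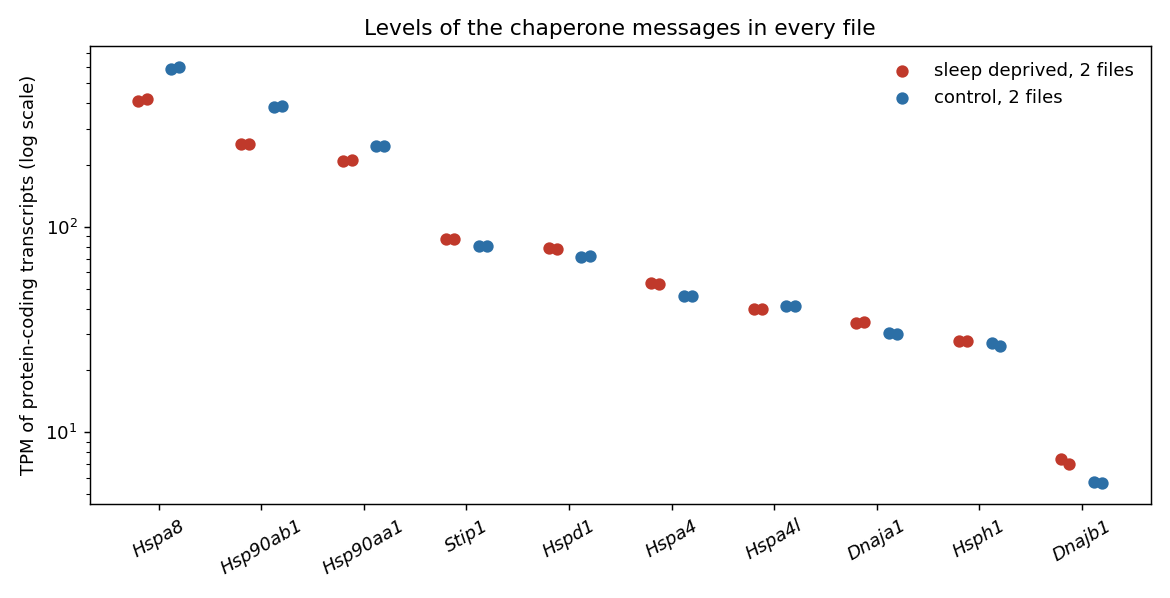
Level of each member in TPM (log axis), summed over its protein-coding transcripts, in the 2 sleep-deprived files and the 2 control files. Hspa8, Hsp90ab1 and Hsp90aa1 lead in both groups and are the members whose sleep-deprived points lie farthest below the control points. Dnajb1 is the lowest, between 5.64 and 7.42 TPM.

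Hspa8 and both Hsp90 proteins end in a short acidic motif, which the TPR domains of Stip1 and of the ubiquitin ligase Stub1 hold. The Hsp110 relatives lack the full motif, and their ends differ from one another. The last 30 coding bases before the stop codon show this in the main transcript of each, read from GENCODE release 21 on GRCm38, with the last 12 in capitals:
Hspa8-202: tcttcaggccccaccattGAAGAGGTGGAT
Hsp90ab1-201: gaggatgcctcgcgcatgGAAGAGGTGGAT
Hsp90aa1-201: gacgacacatcacgcatgGAAGAAGTAGAC
Hspa4-201: gacaagaagcttcctgagATGGACATTGAT
Hspa4l-208: cacaccgactccggagagATGGAAGTGGAC
Hsph1-201: gagaagggctctgtcaacATGGACCTGGAC

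The Hspa8 stretch lies at chr9:40805085-40805114 on the plus strand, that of Hsp90ab1 at chr17:45568018-45568047 and that of Hsp90aa1 at chr12:110691543-110691572, both on the minus strand. In the last 12 bases, Hspa8 and Hsp90ab1 differed at 0 positions, and Hsp90aa1 differed from each of them at 3. By reads, the 3 genes with this ending were also the 3 members with the lowest ratios, and they were the 3 most abundant members. With TPM of all transcripts this did not hold. There Hspa4, without that ending, stood at 0.747, below Hsp90aa1 at 0.84 and Hspa8 at 0.88. The 3 Hsp110 relatives had ratios of 0.859 to 1.08 by reads. This is a description of 6 genes, with no test.

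Most member reads fell on a few transcripts. Of the 64 listed transcripts, 19 were at 0 in every file and 31 were measured, and 6 of those were called, 3 higher and 3 lower. Over all 39605 measured transcripts the background was 22.7% called higher and 12.5% called lower, which the members did not exceed. Hspa8-202 carried the difference of its gene. It had 4812 and 5000 reads in the sleep-deprived files and 9082 and 9182 in the control files, a ratio of 0.576 (0.556 to 0.596), whereas the longer protein-coding form Hspa8-201 stood at 0.934. In Hsp90ab1, the main form Hsp90ab1-201 had a ratio of 0.569 and the intron-retaining form Hsp90ab1-203 one of 0.557. In Hsp90aa1, the main form Hsp90aa1-201 stood at 0.741 and Hsp90aa1-202, which is longer, at 0.585. The main forms of Hspa4 and Hspa4l, Hspa4-201 and Hspa4l-208, had ratios of 0.994 and 0.832. The reads of Dnaja1 were divided mainly among the protein-coding Dnaja1-201, at 1.002, and a pair of processed transcripts. Dnaja1-204 had 434 and 412 reads in the sleep-deprived files and 666 and 642 in the control files, a ratio of 0.694. Dnaja1-208, the form with the most TPM of the gene, had 294 and 312 reads in the sleep-deprived files and 301 and 309 in the control files, a ratio of 1.07 (0.906 to 1.25). Stip1-201 and Hspd1-201, which carried nearly all reads of their genes, had ratios of 0.936 and 0.923.

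Transcripts that keep an intron are not expected to encode the full protein. Among all genes they took 13.3% of reads in each sleep-deprived file and 10.6% in each control file, and their median ratio was 1.46, with 29.8% of 10207 called higher and 7.19% lower. Among member reads they took 5.96% and 6.05% in the sleep-deprived files and 4.30% and 4.32% in the control files. Hsph1 had the largest share of the members, 35.2% and 36.2% of its reads in the sleep-deprived files and 23.8% and 24.5% in the control files, and its protein-coding reads alone had a ratio of 0.909 (0.819 to 1.01), on the other side of 1 from the whole gene. The protein-coding Hsph1-201 and Hsph1-211 stood at 0.918 and 0.901, and the intron-retaining Hsph1-208 and Hsph1-210 at 1.28 (1.06 to 1.56) and 1.36 (0.789 to 2.37). For Hspa8 the share was 10.7% and 10.6% in the sleep-deprived files and 6.34% and 6.20% in the control files, with the intron-retaining reads themselves at a ratio of 1.09 (0.983 to 1.22) and the protein-coding reads at 0.608. Most of these intron-retaining reads lay on Hspa8-208, at 1.08 (0.969 to 1.21). The intron-retaining and protein-coding reads of Hsp90ab1 and Hsp90aa1 had like ratios instead, with intron shares of 2.67% to 3.59% in all 4 files, and Hsp90aa1-205, the main such form of Hsp90aa1, stood at 0.701 (0.558 to 0.877).

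Hspa4 and Hspa4l went in opposite directions. Intron-retaining reads of Hspa4 fell to 2.62% and 2.38% of its reads in the sleep-deprived files, against 8.17% and 8.79% in the control files. They all lay on Hspa4-202, which had 49 and 44 reads in the sleep-deprived files and 172 and 185 in the control files, a ratio of 0.282 (0.200 to 0.390). The processed transcript Hspa4-203 stood at 1.78 (1.24 to 2.58). Those of Hspa4l reached 4.63% and 4.38% in the sleep-deprived files, against 1.58% and 1.20% in the control files. Here Hspa4l-207 had 126 and 113 reads in the sleep-deprived files and 40 and 27 in the control files, a ratio of 3.87 (2.61 to 5.87). The intron-retaining Hsph1-204 was also called higher, with 106 and 108 reads in the sleep-deprived files and 30 and 29 in the control files, a ratio of 3.96 (2.60 to 6.19).

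The other called transcripts, and a short form of Hsph1, rested on few or uneven reads. Hspa8-210, a processed transcript of 357 bases, had 101 and 51 reads in the sleep-deprived files and 0 in both control files. Hsph1-207, which was too low to be measured, had 4 and 1 reads in the sleep-deprived files and 0 in both control files. Hspa4l-202 had 3 and 7 reads in the sleep-deprived files and 16 and 15 in the control files. Dnajb1-202 was at 0 in both sleep-deprived files and had 65 and 0 reads in the control files, so its call came from 1 control file. In that file Dnajb1-201 had 79 reads, against 145 in the other, while the gene's sum was steady.

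**Figure D3:**
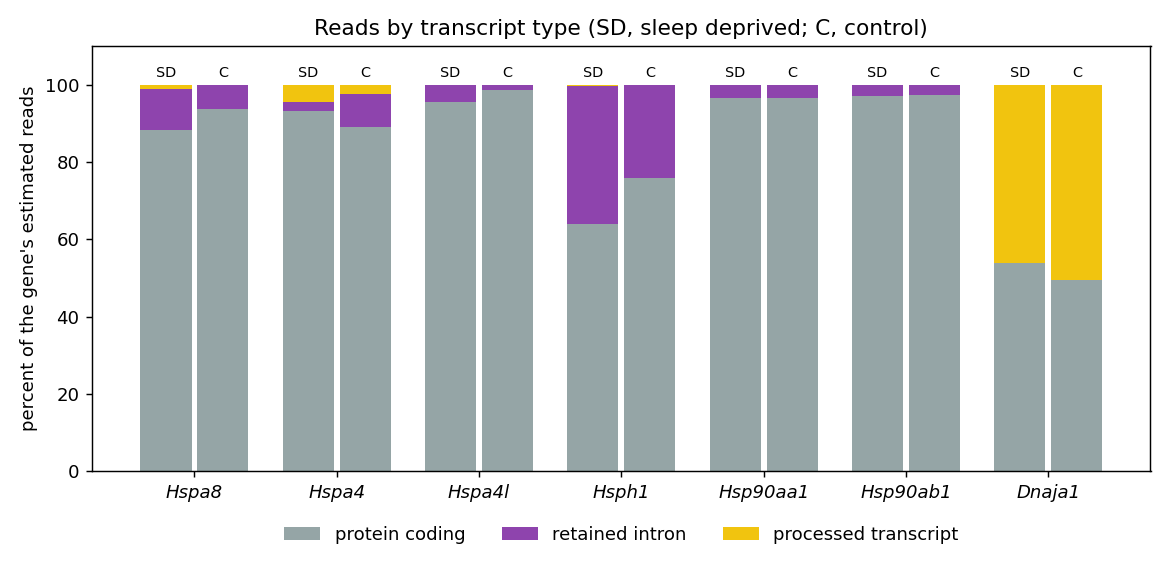
Percent of the estimated reads of a gene on protein-coding, intron-retaining and processed transcripts, in the sleep-deprived (SD, left bar) and control (C, right bar) library, for the members with more than a single type. The intron-retaining share is larger in the sleep-deprived library for Hspa8, Hspa4l and Hsph1 and smaller for Hspa4.

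These short forms weigh heavily on the TPM scale, which divides by length. Hspa4l-207 is 670 bases long and stood at 39.6 and 35.6 TPM in the sleep-deprived files and 10.01 and 6.77 TPM in the control files. The full-length Hspa4l-208, with far more reads, stood at 39.7 and 39.8 TPM in the sleep-deprived files and 41.1 and 41.3 TPM in the control files. With TPM of all transcripts the ratio of Hspa4l was therefore 1.59 in place of 0.859, and it remained above 1, at 1.37, relative to the median of all measured genes, which TPM moved to 0.22 on the log2 scale. On that relative scale Hspa8 stood at 0.758, against 0.880 with TPM as deposited, Hspa4 at 0.644, past 1.5-fold lower, and Hsph1 at 1.35. With TPM as deposited, Hspa4l and Hsph1, the second at 1.57, were past 1.5-fold higher, while Hsp90ab1 was past 1.5-fold lower under each scaling and transcript choice tried. The direction given for Hspa4l holds for reads and for its protein-coding transcripts.

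Heat shock genes have many processed pseudogenes, and reads of a message and its copy are divided by a model. Of 9 annotated pseudogenes sharing at least 50% of their 31-base stretches with a member, 3 were measured. Gm15459, a copy of Hspa8 with 91.9% of its stretches shared (chr5:5781615-5783555, minus strand), had 890 and 886 reads in the sleep-deprived files and 681 and 690 in the control files, a ratio of 1.39 (1.26 to 1.54). When its reads and those of the lesser copies were added to Hspa8, the ratio was 0.691 (0.671 to 0.712) and no longer passed 1.5-fold. Gm15542, a copy of Dnaja1, had 54 and 42 reads in the sleep-deprived files and 16 and 14 in the control files, a ratio of 3.43 (1.89 to 6.60). Gm12346, a copy of Hsp90aa1, had 14 and 13 reads in the sleep-deprived files and 29 and 16 in the control files. Exons of other genes overlapped 10.8% of the exon bases of Dnaja1, 6.09% of those of Hspa8 and 4.24% of those of Hspd1, where reads could not be assigned with certainty.

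Heat shock factors bind inverted repeats of GAA, and their sites were searched for by letter in the RefSeq promoter windows (GRCm38.p6), 250 bases before the start, on both strands. Windows were given for 7 of the 10 genes, so Hspa8, Hsp90aa1 and Hsp90ab1 were not searched. The shortest element searched has 2 units (GAANNTTC or TTCNNGAA), and the longer one adds a further unit in the next inverted place, so that it always holds the shorter. Of the 7 genes searched, the element of 3 units was found for Hspd1, against 0.51% of 27025 genes. That of 2 units was found for Hsph1, Dnaja1 and Hspd1, against 14.55% of genes. A CCAAT box (CCAAT) was found for 4 of the 7, against 37.49% of genes, and a TATA box (TATAAA) for Stip1, against 14.33%. The Hspd1 run is printed 5′ to 3′ on the minus strand, chr1:55088053-55088082, with 2 overlapping matches in capitals:
Hspd1 promoter: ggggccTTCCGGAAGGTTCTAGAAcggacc

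It lies between the start of the main Hspd1 transcript and that of Hspe1, which is read in the other direction. Their ratios, 0.926 and 0.619, differed beyond counting error. A letter match is not evidence of binding, and 2 libraries cannot relate motifs to ratios.

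The wider chaperone network was read from 9 lists of 74 genes, of which 70 were measured. Of these, 3 were called higher and none lower, beside the background of 4.37% and 5.54%, and the median ratio was 0.923. The 3 were Fkbp5, Dnajb5 and Vbp1. Fkbp5, an Hsp90 co-chaperone of the glucocorticoid receptor that glucocorticoids induce, had 373 reads in each sleep-deprived file and 138 in each control file, a ratio of 2.90 (2.38 to 3.55). Dnajb5, a J protein, had 2248 and 2247 reads in the sleep-deprived files and 1114 and 1104 in the control files, a ratio of 2.17 (2.02 to 2.34), but with its protein-coding transcripts alone the ratio was 1.74 (1.59 to 1.91) and the call was lost. Vbp1, a prefoldin subunit, had 3511 and 3520 reads in the sleep-deprived files and 1775 and 1773 in the control files, a ratio of 2.13 (2.01 to 2.25).

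The stress-inducible Hsp70 genes, Hspa1a and Hspa1b, were near the limit of detection. Hspa1a had 26 and 23 reads in the sleep-deprived files and 40 and 45 in the control files, and Hspa1b 25 and 28 in the sleep-deprived files and 26 and 20 in the control files. They are near-identical copies, so the division between them is uncertain. Their sum had a ratio of 0.825 (0.559 to 1.21), and no difference was detectable at this depth. The 3 measured heat shock factors had ratios on both sides of 1. Hsf1, the main activator, had 1412 and 1409 reads in the sleep-deprived files and 889 and 898 in the control files, a ratio of 1.69 (1.56 to 1.84), and Hsf2 had a ratio of 1.34 (1.22 to 1.48), or 1.03 (0.876 to 1.22) with its protein-coding transcripts alone. Hsf4 stood at 0.668 (0.504 to 0.881).

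Among the cofactors, the 18 Hsp90 co-chaperones had a median ratio of 1.11, with 10 above 1. Those with the highest TPM over all transcripts were Stub1, at 1.40 (1.34 to 1.47), and Ttc4, at 1.44 (1.36 to 1.52). With protein-coding transcripts alone Stub1 stood at 2.19 (2.05 to 2.34), past 2-fold. The 10 J proteins had a median ratio of 1.03, with Dnajc7 at 1.28 and Dnaja2 at 0.962. Medians were lower for 6 nucleotide exchange factors of Hsp70, at 0.761, where Bag1 stood at 0.523 (0.477 to 0.572) and Hspbp1 at 1.02, or 1.92 with TPM and 1.65 with TPM relative to the median. The TPM of Hspbp1 was uneven between the control files, at 14.3 and 32.1, where reads were 176 and 180. Of the other folding machines, 8 measured subunits of the CCT chaperonin, which folds actin and tubulin, had a median of 0.806, with Tcp1 at 0.574 (0.542 to 0.608) and Cct6a at 0.669 (0.617 to 0.724). With protein-coding transcripts alone Tcp1 stood at 0.458 (0.426 to 0.493), past 2-fold lower. The median was 0.988 for 6 prefoldin subunits, where Pfdn5 stood at 0.630 (0.569 to 0.698), 0.868 for 7 mitochondrial chaperones, where Hspa9 stood at 0.868 and Lonp1 at 0.843, and 0.755 for 8 other Hsp70 genes, where Hspa14 stood at 0.692 (0.623 to 0.769) and Hspa12a at 0.990 (0.925 to 1.06). Of 7 small heat shock genes 4 were measured, with a median of 0.788, Cryab at 0.686 (0.589 to 0.798) and Hspb8 at 0.891. The median of each list lay within 2-fold of 1, and the lists were not tested against one another.

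**Figure D4:**
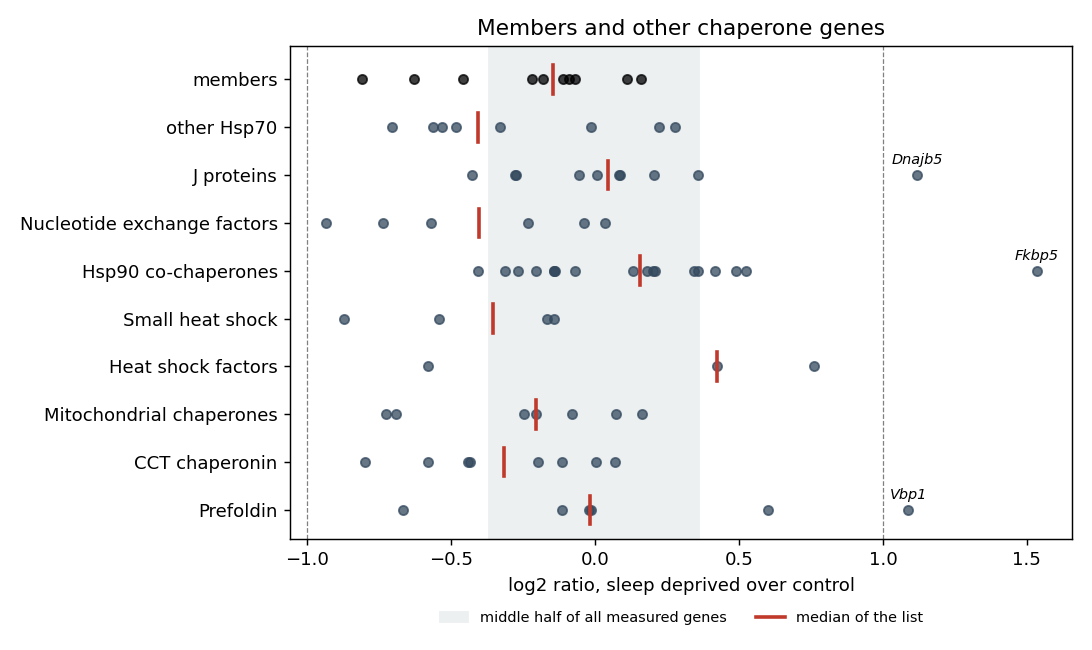
Log2 ratio of sleep deprived over control for the 10 members and for each measured gene of 9 further chaperone lists (points), with the median of each list (red line) and the range between the quartiles of all measured genes (shaded). Dashed lines mark 2-fold. Dnajb5, Fkbp5 and Vbp1 lie past 2-fold, and Hsp90ab1 and Hspa8 are the lowest members.

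Markers of cell types differed between the libraries, and chaperones are made in all of these cells. The summed level of 10 microglial markers was 548 CPM in the sleep-deprived and 165 CPM in the control library, a ratio of 3.32 (3.18 to 3.48), and 9 of the 10 were called higher. Although the pulldown was aimed at microglia, 9 neuronal markers summed to 2956 CPM in the sleep-deprived and 3391 CPM in the control library (0.872), none called. Sums over lists of different genes do not rank the cell types. The sum of 6 astrocyte markers was 807 CPM in the sleep-deprived and 1537 CPM in the control library (0.525), with 3 called lower. The sum of 7 oligodendrocyte markers was 2198 CPM in the sleep-deprived and 3489 CPM in the control library (0.630), with 2 called lower, and that of 4 endothelial markers 128 CPM in the sleep-deprived and 130 CPM in the control library (0.981), with none called. Neuronal markers went both ways, with Slc17a7, of glutamatergic neurons, at 1.71 and Gad1 and Gad2, of inhibitory neurons, at 0.580 and 0.620. The ratios of Hspa8 and Hsp90ab1 lay below 1, as did the neuronal, astrocyte and oligodendrocyte sums. The interval of the endothelial sum (0.920 to 1.05) included 1. No marker in the lists was at 0 in either library, and the share of cell makeup in the chaperone ratios was not tested. Fewer cells of a type, less RNA per cell and a difference between the pulldowns in how much other RNA came along cannot be told apart in such libraries.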

How the data were processed

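The submitters' processing notes name Salmon, DESeq2 and the build mm10, without versions. The estimated counts per transcript were deposited as fractional, unnormalized values, and the TPM values beside them are the authors' abundances scaled by length, per the file headers. For read layout, strand and annotation, nothing is given in the sources used here. In 99.2% of transcripts over 1000 bases the effective length was exactly 250 bases below the length.

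Transcripts were matched to GENCODE release 21 (115898 of 116546, 99.4%), and unmatched reads, 0.339% to 0.366% of a file, were left out. Counts were summed per gene, averaged over the 2 files of a group, rounded and scaled by TMM over all genes (edgeR 4.0.16, R 4.3.3). Measured genes passed filterByExpr with a minimum count of 10. Intervals are exact conditional Clopper-Pearson. Reads are not independent molecules, so intervals and the floor of 3 reads cover counting error only. The ratio step was tested on simulated data. The files of a group were compared over genes with at least 20 reads. The edgeR quasi-likelihood test, the DESeq2 test and the replicate block need distinct replicates and were not run. The protein comparison that had been planned was not made here.

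The members and the lists were chosen with earlier results of these data known. All 10 members are named. Of the other lists, the genes past 2-fold and the 2 with the highest mean TPM are named, and of transcripts, those with at least 5% of the TPM of their gene and those called. Hspe1, Hspa1a, Hspa1b, Hsf4, 3 neuronal markers and the transcripts under 5% were added outside that rule after their values were seen. Alternatives covered scaling, the filter, TPM, protein-coding transcripts alone, pseudogene reads, a 1.5-fold rule and leaving out each file. TMM over measured genes alone, TPM relative to the median and the class of at least 50 CPM were added after seeing the data.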

Additional observations from a re-analysis of the deposited data

How the results depend on the processing

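No paired analysis was possible because files within a group were indistinct at the level of sampling noise and counted as 1 library. Leaving out any file kept the direction of all 10 member ratios, and Hspa8 ranged from 0.639 to 0.652 and Hsp90ab1 from 0.569 to 0.570. Upper quartile scaling, DESeq2 size factors, TMM over measured genes alone (added after seeing the data) and no filter moved no member ratio beyond its interval. The Hsp70 sum (0.753) was 0.722 with total reads, 0.726 with protein-coding transcripts alone, 0.777 with pseudogene reads, 0.969 with TPM and 0.835 with TPM relative to the median of all genes. The Hsp90 sum (0.638) was 0.611 with total reads and 0.743 with TPM. The co-chaperone sum (0.916) was 0.970 with protein-coding transcripts alone and 1.09 with TPM. TPM also turned the median log2 ratio of the members to 0.12. It put Dnaja1, Hspd1, Stip1 and Hspa4l on the other side of 1, at 1.09, 1.09, 1.09 and 1.59, and Hspa9 at 1.12. The interval of Stip1 by reads had included 1. Relative to the median of all genes, Hspa4l alone of the members stayed turned, at 1.37. Dnajc7 was 0.988 with protein-coding transcripts alone. Under a 1.5-fold rule the members called lower numbered 2 in place of 0, and in the other lists 5 genes were called higher and 7 lower, in place of 3 and 0. In those lists 2 genes were called lower with no filter, 1 with protein-coding transcripts alone (Tcp1) and 1 with relative TPM (Bag1). Over all measured genes, 651 were called higher and 826 lower, against 1375 and 675 with TPM and 949 and 829 with protein-coding transcripts alone. The cause of these shifts was not tested. With 1 library per group, differences between mice were not measured, and Dnajb1, Hspa1a and Hspa1b rest on few reads.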
